A study of Homo sapiens with 36 samples.

Results

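Epithelial cells that lose their contacts and acquire a motile, fibroblast-like state undergo epithelial-mesenchymal transition (EMT). The mRNA levels of 10 classical EMT markers were examined in Caco-2 and HT-29, which are 2 cell lines from human colorectal tumours. The 10 markers were taken by symbol from the 60591 genes of the mRNA count table: CDH1, CDH2, EPCAM, VIM, FN1, SNAI1, SNAI2, ZEB1, ZEB2 and TWIST1. Caco-2 cells had been kept for 21 days under differentiation conditions before treatment, whereas HT-29 cells were grown in ordinary culture, so the line and the culture state cannot be told apart. For 24 h, cells of each line received 300 µM CoCl2, 5 µM of the oxyquinoline derivative 4896-3212 (Oxy in the labels), or 0.5 µl of DMSO per ml of medium as a control. Oxy was added in the same volume of DMSO as the control, while CoCl2 came from an aqueous stock. The methods of the study describe Caco-2 and not HT-29. They also place DMSO in the CoCl2 medium and give a higher DMSO concentration than the labels. Neither the solvent match of CoCl2 and control nor the DMSO concentration is therefore settled. Both agents are used to imitate hypoxia through stabilisation of the hypoxia-inducible factor. Each of the 6 groups had 3 mRNA libraries, 18 in all, and miRNA was sequenced in 18 further libraries of the same groups. The methods call the mRNA replicates biological but do not say whether they were separate cultures, and do not cover those of HT-29. The labels say nothing of it, so p-values measure the spread between these libraries.

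In an epithelial cell, E-cadherin (CDH1) holds neighbouring cells together at adherens junctions, and EPCAM is a surface adhesion molecule of epithelia. The transcription factors SNAI1, SNAI2, ZEB1, ZEB2 and TWIST1 repress CDH1, and mesenchymal cells instead make N-cadherin (CDH2), the intermediate filament protein vimentin (VIM) and the matrix glycoprotein fibronectin (FN1). The miR-200 family of miRNAs and miR-205 bind the ZEB1 and ZEB2 messages and keep epithelial cells epithelial, while ZEB factors repress the miR-200 genes in turn.

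The sequences of this pairing are shown because ZEB1 was the marker with the highest fold change against control under the main scaling, though not when library size alone was used. All 6 miRNAs matched RefSeq (GRCh38.p14), and they fall into 3 groups by seed, bases 2 to 8, shown in capitals.
hsa-miR-200b-3p: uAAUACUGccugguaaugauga
hsa-miR-200c-3p: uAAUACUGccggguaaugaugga
hsa-miR-429: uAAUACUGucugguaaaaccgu
hsa-miR-200a-3p: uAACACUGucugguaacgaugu
hsa-miR-141-3p: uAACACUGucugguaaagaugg
hsa-miR-205-5p: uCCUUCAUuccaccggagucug
The seed of miR-200b-3p, miR-200c-3p and miR-429 pairs with CAGTATT, that of miR-200a-3p and miR-141-3p with CAGTGTT, and that of miR-205-5p with ATGAAGG. These letters were searched on the transcript strand of the canonical 3′ untranslated regions (GENCODE 44, GRCh38). The ZEB1 region, 2540 bases long, held CAGTATT 6 times, CAGTGTT 3 times and ATGAAGG 1 time. The ZEB2 region, 5370 bases long, held CAGTATT 5 times, CAGTGTT 4 times and ATGAAGG 0 times. Of 5170 canonical 3′ untranslated regions between 2000 and 6000 bases long, 55.6% held at least 1 of the 2 family motifs, with a median of 1 match, and 3 held 9 or more. ZEB1 and ZEB2 with 9 matches each were counted among those 3. The most upstream match of each family motif in both messages is printed with the match in capitals.
ZEB1, chr10:31527621-31527641, plus strand: gttttatcttatCAGTATTat
ZEB1, chr10:31528034-31528054, plus strand: aatcatcagaatCAGTGTTtg
ZEB2, chr2:144389051-144389071, minus strand: actaccatacatCAGTATTtt
ZEB2, chr2:144389235-144389255, minus strand: aaaaattttgtaCAGTGTTaa
A match is a run of letters and was not tested as a binding site.

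Total counts per mRNA library ran from 12925719 to 22332639. Levels are given as CPM, counts relative to a library's size, after normalisation by TMM (trimmed mean of M values), and a level of 3 counts, the floor used here, was 0.134 to 0.232 CPM without that scaling. The mean TMM factor was 1.19 in HT-29 control, 0.77 in HT-29 CoCl2 and 1.09 in HT-29 Oxy libraries, and 1.12, 0.894 and 1.00 in Caco-2. Scaling by library size alone lowered the median log2 fold change over all genes by 0.63 for CoCl2 against control in HT-29, by 0.32 in Caco-2, and by 0.14 and 0.15 for Oxy in HT-29 and Caco-2. Under it the share of called genes that were higher went from 42.1% to 17.2% for CoCl2 in HT-29, from 39.1% to 19.7% for CoCl2 in Caco-2, from 55.7% to 43.4% for Oxy in HT-29 and from 37.9% to 23.3% for Oxy in Caco-2. Changes below are therefore relative to the bulk of genes, and a marker is named where its direction turned under library size alone. All 10 intestinal epithelium markers were above the floor in every library, which goes with the labelled origin of both lines. Being above the floor does not mean that their levels were stable. With CoCl2 in HT-29, means fell for VIL1 (205 to 33.6 CPM), CDX2 (12.8 to 4.63), GPA33 (14.35 to 5.84), HNF4A (86.85 to 56.4), LGALS4 and CEACAM5. They rose there for KRT8, KRT18, KRT20 (321 to 755 CPM) and CDH17. The KRT8 and KRT18 rises, 0.44 and 0.14 on the log2 scale, were smaller than the shift of 0.63 under library size alone. Their direction therefore depended on the scaling. Of 10 fibroblast markers, 6 were above the floor in every Caco-2 control library and 4 in every HT-29 control library, with summed levels of 98.3 to 109 CPM and 18.5 to 19.6 CPM, while COL1A2, DCN and THY1 held at most 3 counts in any library. The 10 immune and endothelial markers summed to 26.2 to 40.9 CPM in Caco-2 and to 1080 to 1210 CPM in HT-29, where lysozyme (LYZ) made up a mean of 1096 CPM in control, and the leukocyte gene PTPRC held at most 2 counts.

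The filter on low counts left 5 of the 10 markers in each line: CDH1, EPCAM, VIM, FN1 and SNAI1 in Caco-2, and CDH1, EPCAM, FN1, SNAI1 and ZEB1 in HT-29. Calls required a false discovery rate (FDR) below 0.05 together with a log2 fold change above 1 in size. For CoCl2 against control in Caco-2, 1 tested marker was called and 3 passed the FDR alone, against 23.4% and 64.7% of all 16034 genes tested. For Oxy in Caco-2, 0 were called and 4 passed the FDR in edgeR, against 11.7% and 50.4%. In HT-29, 2 of the 5 tested markers were called with CoCl2, where 41.3% of 15812 genes were, and 4 passed the FDR, where 82.8% did. With Oxy in HT-29, 3 were called and all 5 passed, where 17.1% and 68.8% of genes did. All but 1 of the 16 marker changes that passed the FDR against control were increases, and the exception was FN1 with Oxy in Caco-2. The increases of EPCAM in HT-29 turned sign under library size alone, at -0.28 with CoCl2 and -0.01 with Oxy. CoCl2 and Oxy were compared with the same control libraries, so their results are not independent of each other.

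**Figure D1:**
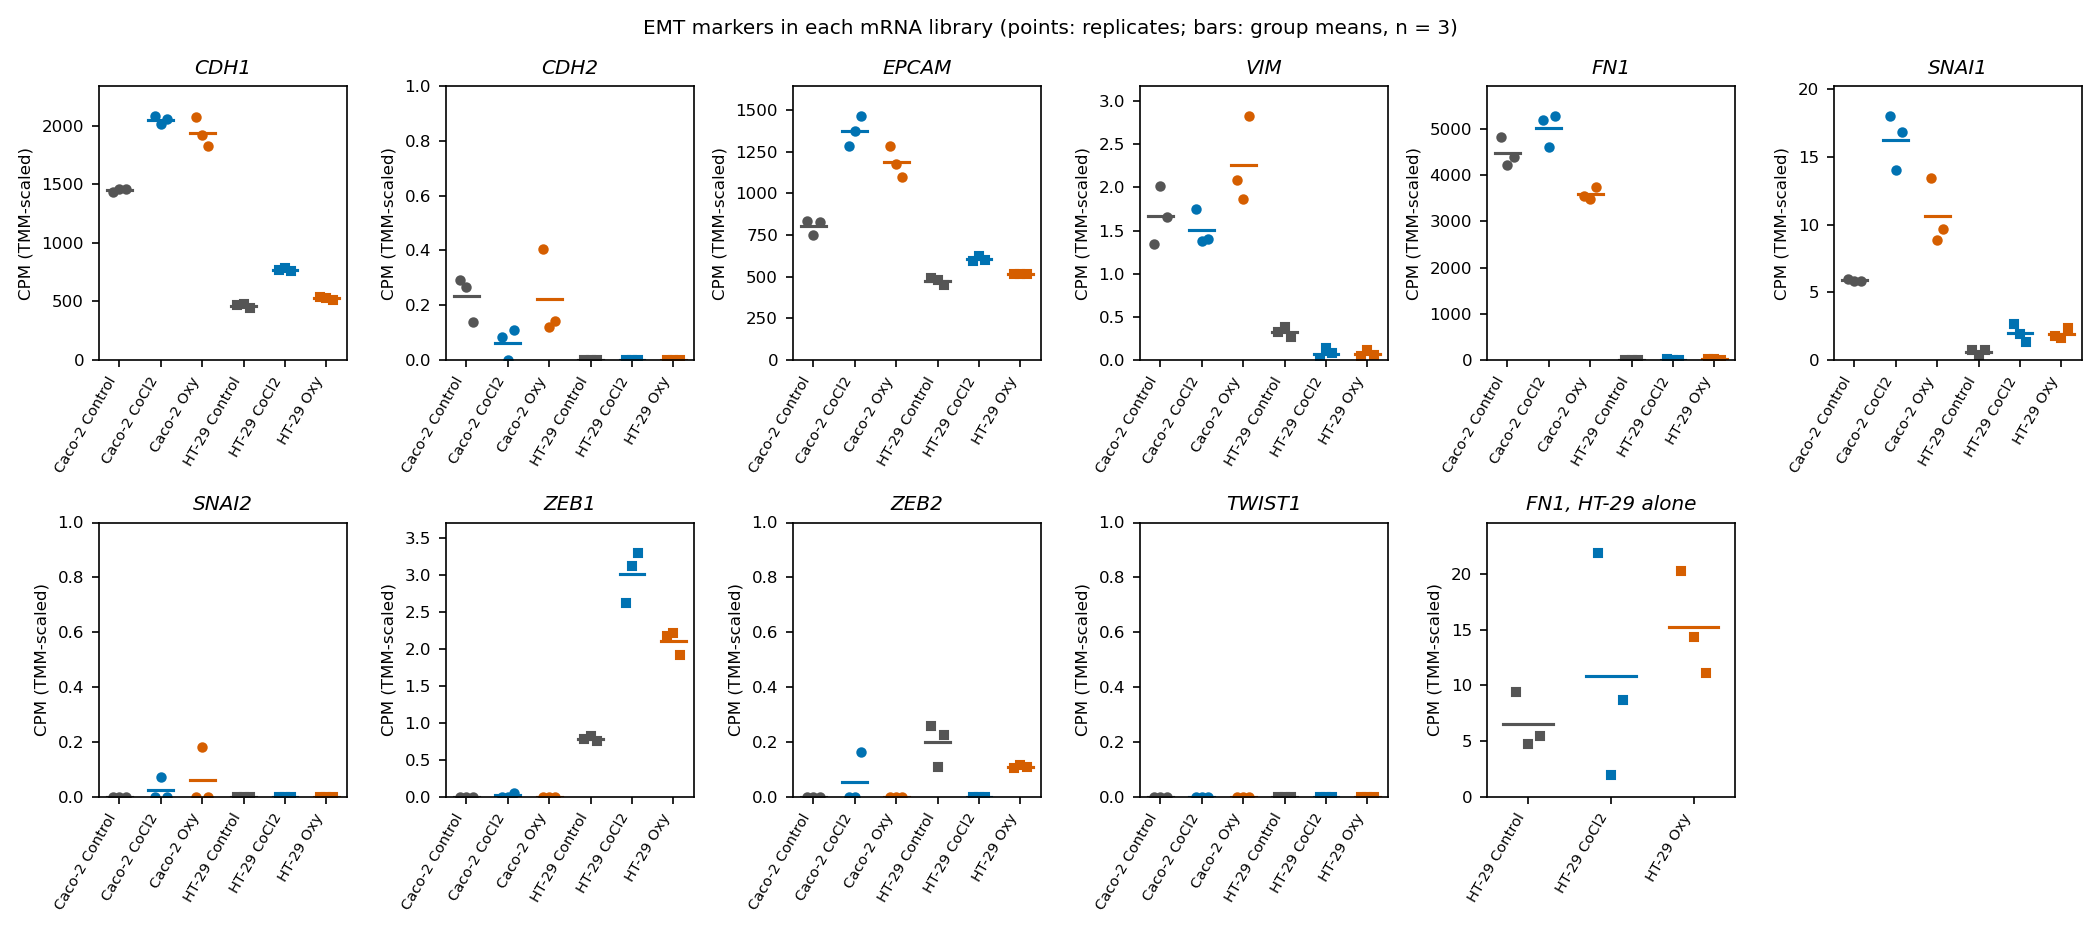
Level of each EMT marker in each of the 18 mRNA libraries, in CPM on linear axes that start at 0 (points, replicates; bars, means of 3). FN1 has a second panel for HT-29 alone, where the levels of 1.94 to 21.9 CPM cannot be seen beside 3493 to 5272 CPM in Caco-2, and TWIST1 was at 0 in all libraries.

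CDH1 (chr16:68737292-68835537) was among the most abundant genes in both lines and rose with both agents. In Caco-2 its level was 1435, 1456 and 1456 CPM in control, 2078, 2012 and 2056 with CoCl2, and 2073, 1919 and 1830 with Oxy. No treated library overlapped the control libraries. The log2 fold change was 0.50 (SE 0.0712, FDR 1.4e-06, edgeR) with CoCl2 and 0.42 (SE 0.0712, FDR 2.75e-05) with Oxy. In HT-29 it was 466, 481 and 445 CPM in control, 767, 787 and 764 with CoCl2, and 534, 532 and 512 with Oxy, again without overlap. The rise was 0.74 on the log2 scale with CoCl2 (SE 0.0434, FDR 1.09e-14) and 0.18 with Oxy (SE 0.0432, FDR 0.000565, edgeR), the latter 0.05 with an FDR of 0.32 under library size alone. Under library size alone the CoCl2 rise of CDH1 was smaller, 0.18 in Caco-2 (FDR 0.0108, edgeR) and 0.10 in HT-29 (FDR 0.0228). CoCl2 and Oxy differed in HT-29 by 0.55 (FDR 6.62e-12, edgeR), which became 0.06 with an FDR of 0.205 under library size alone. In Caco-2 their difference was 0.08 with a 95% interval from -0.07 to 0.22 (FDR 0.375, edgeR). Here and below, more RNA per cell and more cells of a type cannot be told apart in bulk libraries.

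EPCAM (chr2:47345158-47387601) rose with both agents, more in Caco-2 than in HT-29. Its level in Caco-2 was 836, 751 and 826 CPM in control, 1281, 1374 and 1461 with CoCl2, and 1284, 1175 and 1096 with Oxy. Both treated groups lay above the control, with log2 fold changes of 0.77 (SE 0.0785, FDR 6.71e-09, edgeR) and 0.56 (SE 0.0783, FDR 2.23e-06). The CoCl2 value was 0.45 (FDR 9.27e-06, edgeR) under library size alone. CoCl2 exceeded Oxy by 0.21 (FDR 0.0272, edgeR), but the 2 groups overlapped, and without CoCl2 replicate 2 or 3, or Oxy replicate 2 or 3, the FDR was 0.06, 0.138, 0.0811 and 0.135. Under library size alone this difference was 0.05 (FDR 0.602, edgeR). In HT-29 the levels were 490, 483 and 451 CPM in control, 596, 626 and 597 with CoCl2, and 514, 517 and 519 with Oxy. The groups did not overlap, and the log2 fold changes were 0.35 with CoCl2 (SE 0.0440, FDR 4.15e-08, edgeR) and 0.12 with Oxy (SE 0.0439, FDR 0.0157), the latter 0.08 with an FDR of 0.078 without control replicate 3 and with an FDR of 0.0793 when no filter was used. These directions in HT-29 depended on scaling: under library size alone EPCAM was lower with CoCl2 by -0.28 (FDR 9.03e-07, edgeR), and with Oxy the value was -0.01 (FDR 0.785). CoCl2 exceeded Oxy in HT-29 by 0.23 (FDR 3.5e-05, edgeR), which was -0.27 under library size alone (FDR 2.31e-06).

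SNAI1 (chr20:49982980-49988886), the zinc finger repressor of CDH1, rose in all 4 comparisons with control while CDH1 rose too. In Caco-2 it stood at 5.996, 5.84 and 5.82 CPM in control, at 18, 14.02 and 16.9 with CoCl2, and at 13.5, 8.89 and 9.67 with Oxy. The 3 groups were separate from each other. The log2 fold change was 1.47 with CoCl2 (SE 0.158, FDR 1.7e-08, edgeR), 0.85 with Oxy (SE 0.163, FDR 0.000122), and 0.61 for CoCl2 over Oxy (FDR 0.0013). HT-29 libraries held few reads of it, 12, 7 and 19 counts in control, 36, 28 and 16 with CoCl2, and 35, 28 and 44 with Oxy. On the CPM scale these were 0.774, 0.383 and 0.713, then 2.69, 1.94 and 1.32, then 1.81, 1.63 and 2.34, so that each treated library exceeded each control library. SNAI1 rose there by 1.66 with CoCl2 (SE 0.312, FDR 2.63e-05, edgeR) and by 1.61 with Oxy (SE 0.296, FDR 2.9e-05), and the CoCl2 value was 1.03 (FDR 0.004) under library size alone. The difference between the agents in HT-29 was 0.05 with a 95% interval from -0.48 to 0.57 (FDR 0.872, edgeR), and its sign turned under library size alone, at -0.45.

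ZEB1 (chr10:31318495-31529814), the repressor with the miR-200 matches shown above, was measured in HT-29 and was at 0 in 8 of 9 Caco-2 libraries, with 1 count in a CoCl2 library. HT-29 control libraries held 12, 15 and 20 counts, CoCl2 libraries 35, 45 and 40, and Oxy libraries 42, 38 and 36. These corresponded to 0.774, 0.820 and 0.751 CPM in control, 2.61, 3.11 and 3.29 with CoCl2, and 2.17, 2.21 and 1.92 with Oxy, and the 3 groups did not overlap. The rise was 1.94 on the log2 scale with CoCl2, a 3.83-fold change (SE 0.229, FDR 1.58e-08, edgeR), and 1.42 with Oxy, a 2.68-fold change (SE 0.232, FDR 5.6e-06). Under library size alone the CoCl2 value was 1.31 (FDR 1.04e-05, edgeR), and limma on the deposited log2(RPKM + 1) values, a scale that compresses low genes, gave 0.29 with CoCl2 (FDR 1.66e-05) and 0.19 with Oxy (FDR 0.000813). CoCl2 exceeded Oxy by 0.52 (FDR 0.017, edgeR), but the FDR was 0.0526, 0.066 and 0.0629 without CoCl2 replicate 2, CoCl2 replicate 3 or Oxy replicate 3, 0.0595 with DESeq2, and the value was 0.02 (FDR 0.929) under library size alone. The antisense gene ZEB1-AS1, which overlaps ZEB1 on the other strand, held 115 to 197 counts in HT-29 control, 17 to 40 with CoCl2 and 133 to 141 with Oxy. It fell by 1.61 on the log2 scale with CoCl2 (FDR 7.77e-09, edgeR) and was at 0.02 with Oxy (FDR 0.882). The strand setting of the counting was not given in the sources used here, so reads of this pair may be shared.

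The other 3 repressors were at or near the floor. TWIST1 had 0 counts in all 18 libraries, which allows up to 3 counts, or at most 0.232 CPM in the shallowest library. SNAI2 had 1 count in a CoCl2 library and 3 in an Oxy library of Caco-2, and 0 in the other 16. ZEB2 had 3 counts in a Caco-2 CoCl2 library and 0 in the other 8 Caco-2 libraries. In HT-29, ZEB2 had 4, 2 and 6 counts in control, 0, 0 and 0 with CoCl2, and 2, 2 and 2 with Oxy. Its control level was so close to the floor that no bound on a fold change can be given.

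FN1 (chr2:215360440-215436073) had the largest difference between the untreated lines among the tested markers. In Caco-2 it took 0.344% to 0.541% of all counts, at 4820, 4217 and 4403 CPM in control, 5197, 4605 and 5272 with CoCl2, and 3543, 3493 and 3737 with Oxy. With Oxy all libraries lay under the control and FN1 fell by 0.32 on the log2 scale (SE 0.0779, FDR 0.00147, edgeR). With CoCl2 the value was 0.17 (SE 0.0778, FDR 0.0656, edgeR) and the groups overlapped. That call moved easily: the FDR was 0.0277 with DESeq2, 0.0367 without control replicate 1, 0.0204 without CoCl2 replicate 2 and 0.0207 without Oxy replicate 1, and the value was -0.16 (FDR 0.0541) under library size alone. CoCl2 exceeded Oxy by 0.48 (FDR 1.47e-05, edgeR), and these groups did not overlap.

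In HT-29 FN1 was low and uneven between replicates. Control libraries stood at 9.42, 4.70 and 5.41 CPM, CoCl2 libraries at 21.9, 1.94 and 8.64, and Oxy libraries at 20.2, 14.3 and 11.1. The Oxy libraries lay above the control, and FN1 rose by 1.27 (SE 0.355, FDR 0.00258, edgeR), while DESeq2 gave 1.21 with an FDR of 0.171 and limma on the deposited log2 values gave 0.44 with an FDR of 0.0641. The CoCl2 libraries held both the highest and the lowest level of the line. Their value was 0.76 (SE 0.394, FDR 0.0753, edgeR), which was 1.30 (FDR 0.000195) without CoCl2 replicate 2, 1.06 (FDR 0.0177) without control replicate 1 and -0.31 (FDR 0.438) without CoCl2 replicate 1. It was 0.70 (FDR 2.52e-08, edgeR) with no filter and 0.13 (FDR 0.756) under library size alone. For CoCl2 against Oxy the value was -0.51 (FDR 0.184, edgeR), -1.59 (FDR 0.000119) without CoCl2 replicate 1 and 0.02 (FDR 0.935) without CoCl2 replicate 2.

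VIM (chr10:17228241-17237593) and CDH2, the structural mesenchymal markers, were at low levels throughout. VIM in Caco-2 had 23, 30 and 24 counts in control, 21, 19 and 26 with CoCl2, and 31, 31 and 40 with Oxy. The log2 fold changes were -0.15 with CoCl2 (95% interval -0.77 to 0.48, FDR 0.681, edgeR) and 0.43 with Oxy (95% interval -0.15 to 1.02, FDR 0.21), and both treated groups overlapped the control. In HT-29, VIM did not pass the filter and had 5, 7 and 7 counts in control, 0, 2 and 1 with CoCl2, and 1, 2 and 1 with Oxy. Every treated library was under every control library. The ratio of the summed counts, on TMM-scaled library sizes, was 0.238 for CoCl2 (95% interval 0.0452 to 0.81) and 0.23 for Oxy (0.0569 to 0.692). Per total count it was 0.154 (0.0292 to 0.523) and 0.209 (0.0518 to 0.63), a scaling added after the data were seen, and these intervals cover counting error only. CDH2 had 5, 4 and 2 counts in Caco-2 control, 1, 0 and 2 with CoCl2 and 6, 2 and 2 with Oxy, and 0 in all 9 HT-29 libraries.

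**Figure D2:**
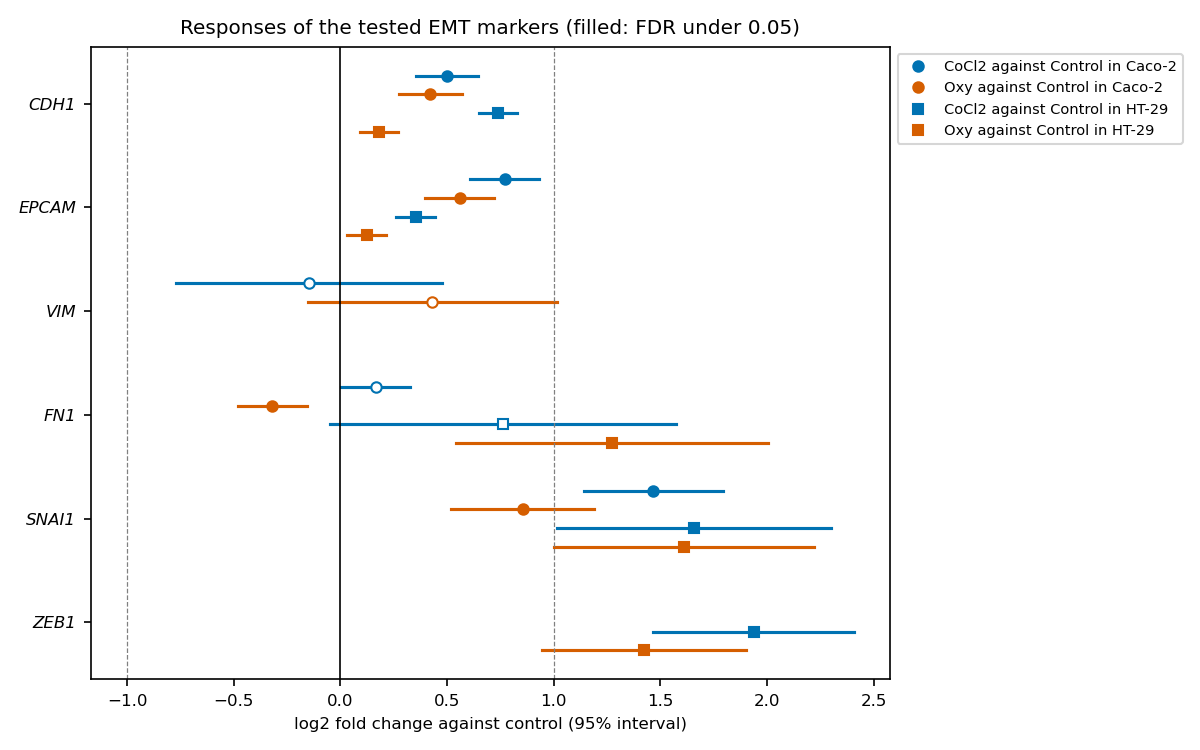
Log2 fold change against control of the tested EMT markers with 95% intervals (edgeR, TMM scaling), for Caco-2 (circles) and HT-29 (squares), CoCl2 in blue and Oxy in orange. Filled symbols passed an FDR of 0.05. ZEB1 with CoCl2 in HT-29 lies highest at 1.94, and FN1 with Oxy in Caco-2 is the filled symbol under 0; the HT-29 points of EPCAM turned sign under library size alone.

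Compared per gene length, EPCAM had the highest level of the markers in both lines. Values of the authors' table in RPKM, reads scaled to gene length and library size, were used for this order, and each line had been scaled separately. In Caco-2 control, EPCAM stood at 338 ± 19.3 RPKM (SD, n = 3), FN1 at 266 ± 18.4 and CDH1 at 242 ± 1.88, followed far below by SNAI1 at 3.52 ± 0.0618 and VIM at 0.329 ± 0.0664. By rank among the 13153 genes listed for Caco-2, EPCAM was between 51 and 77, CDH1 between 82 and 111 and FN1 between 82 and 145. In HT-29 control, EPCAM stood at 202 ± 8.93 RPKM, CDH1 at 78.3 ± 3.15, FN1 at 0.390 ± 0.152 and ZEB1 at 0.0932 ± 0.00434. FN1 ranked between 10005 and 12379 of the 12431 genes listed for HT-29, and SNAI1 and VIM were listed at 0 in that table although the count table held reads of both.

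Between the untreated lines, on a scale common to all 18 libraries, 5 of 6 tested markers were called, against 45.8% of 17921 genes, and all 6 passed the FDR alone, against 79.1%. CDH1 was 485 ± 16.4 CPM in HT-29 and 1423 ± 12.5 CPM in Caco-2, a log2 difference of -1.55 (SE 0.0586, FDR 1.66e-22, edgeR). FN1 was 6.80 ± 2.60 CPM in HT-29 and 4402 ± 305 CPM in Caco-2, a difference of -9.38 (SE 0.313, FDR 4.94e-24). SNAI1 was lower in HT-29 by -3.12 (FDR 4.38e-13, edgeR), VIM by -2.28 (FDR 1.06e-06) and EPCAM by -0.67 (FDR 1.94e-11), the last within the fold limit. ZEB1 was the marker higher in HT-29, where it had 47 counts in the 3 control libraries against 0 in Caco-2, at least 4.28-fold higher with the Caco-2 level set at 3 counts per library.

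The responses themselves differed between the lines for some markers. These differences come from a joint fit scaling all 18 libraries together, and need not equal the difference of the values within each line. Over all genes their median was -0.13 for CoCl2 and 0.01 for Oxy, so the CoCl2 values are not centred on the bulk of genes. For CoCl2, 1 of the 6 markers in the joint fit was called and 2 passed the FDR, against 21.6% and 49.8% of genes. EPCAM responded less in HT-29, by -0.52 (SE 0.0905, FDR 9.73e-06, edgeR), and the called marker was VIM, whose treated HT-29 libraries held at most 2 counts. With DESeq2, or with its size factors in edgeR, 0 markers were called. For CDH1 the difference was 0.13 with a 95% interval from -0.04 to 0.29 (FDR 0.193, edgeR), although the FDR was 0.0158 with other size factors and 0.00138 with DESeq2. For Oxy, 2 markers were called and 4 passed, against 15.2% and 42.9%. The Oxy response in HT-29 was lower by -0.45 for EPCAM (FDR 0.000101, edgeR) and by -0.26 for CDH1 (FDR 0.0102), and higher by 1.57 for FN1 (FDR 0.000922), which fell in Caco-2 and rose in HT-29. DESeq2 gave 1.55 with an FDR of 0.0712 for that FN1 difference. For SNAI1 the difference was 0.74 with Oxy (95% interval 0.01 to 1.46, FDR 0.0951, edgeR), and 0.93 (FDR 0.024) without Caco-2 Oxy replicate 1. ZEB1 could not be compared in this way because Caco-2 gave almost no reads of it.

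Of the direct comparisons of both agents, 3 of 5 tested markers passed the FDR in each line and 0 were called in edgeR, against 11.7% of genes called in Caco-2 and 29.9% in HT-29. At an unadjusted p under 0.05 the 3 markers were EPCAM, FN1 and SNAI1 in Caco-2, and CDH1, EPCAM and ZEB1 in HT-29, all higher with CoCl2, except that EPCAM in HT-29 was lower under library size alone. Under library size alone EPCAM in Caco-2 (FDR 0.602, edgeR) and CDH1 and ZEB1 in HT-29 (FDR 0.205 and 0.929) no longer passed the FDR. On the FDR alone, 49.6% of all genes passed in Caco-2 and 77.7% in HT-29. The doses differed, 300 µM and 5 µM, so these values compare conditions and not the agents at equal dose.

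The markers were set beside 3 wider lists that do not hold them. Of 34 epithelial genes, all tested, 9 were called higher and 0 lower with CoCl2 in Caco-2, against 9.13% and 14.2% of all genes, with a median log2 fold change of 0.53 against -0.03 over all genes. With Oxy in Caco-2, 5 were called higher and 0 lower, against 4.43% and 7.27% of all genes, with a median of 0.51 against -0.02. Under library size alone 4 were called higher and 1 lower with CoCl2, with a median of 0.21, and 2 higher and 0 lower with Oxy, with a median of 0.35. The CoCl2 rise was led by the tight junction protein CLDN4, at 1148 ± 111 CPM against 228 ± 12.9 (SD, n = 3), a log2 fold change of 2.33 (FDR 1.05e-17, edgeR). The epithelial transcription factor ELF3 rose by 2.00. With Oxy the called genes were the desmosomal DSC2 at 1.37, DSP at 1.34 and DSG2 at 1.07, and ELF3 and CLDN4 at 1.02 and 1.01, the last 2 named after their values were seen.

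In HT-29 the epithelial list split. With CoCl2, 9 genes were called higher and 3 lower, against 17.4% and 23.9% of all genes, with a median of 0.62 against -0.03, but under library size alone 4 were higher and 7 lower with a median of -0.01. The simple epithelial keratin KRT19 rose by 2.35, CLDN4 by 2.23 and ELF3 by 1.83, while the desmosomal plakophilin PKP2 fell by 1.64 and P-cadherin CDH3 by 1.30. The third gene called lower was OVOL2, a transcription factor, at -1.31 with a mean of 55.5 counts, named after its value was seen. With Oxy in HT-29, 0 of the 34 were called in edgeR, 24 passed the FDR alone as higher and 4 as lower, and the median was 0.35 against 0.01. Of all genes, 9.5% were called higher and 7.57% lower there.

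Of 40 mesenchymal genes, the count filter kept 27 for Caco-2 and 22 for HT-29. In Caco-2, 6 were called higher and 2 lower with CoCl2, or 29.6% of those tested against 23.4% of all genes, and 5 higher and 2 lower with Oxy, or 25.9% against 11.7%. The medians were 0.03 and -0.05, against -0.03 and -0.02 over all genes. Under library size alone 4 were called higher and 3 lower with CoCl2, and 3 higher and 2 lower with Oxy. The fibronectin receptor subunit ITGA5 rose by 4.17 with CoCl2 and by 3.85 with Oxy, from 4.49 ± 0.578 CPM in control to 81.1 ± 5.08 and 64.8 ± 3.13. The collagen cross-linking enzyme LOX rose by 2.90 and 2.5, and the urokinase receptor PLAUR by 2.74 with CoCl2. With Oxy PLAUR rose by 1.68 (FDR 1.12e-06, edgeR) at a mean of 58.67 counts, named after its value was seen. In the same cells the platelet-derived growth factor receptor PDGFRB fell by 4.09 with CoCl2 and by 2.1 with Oxy, from 53.9 ± 4.28 CPM to 3.10 ± 0.568 and 12.6 ± 1.1, and the surface enzyme NT5E fell by 1.28 and 1.21. PDGFRB was also 1 of the 10 fibroblast markers. Control libraries of Caco-2 held 98.3 to 109 CPM of these markers together. The sum was lower after treatment, 42.7 to 46.0 CPM under CoCl2 and 50.7 to 55.1 CPM under Oxy. PDGFRB itself made up most of that fall, and the other markers did not move as a set. Mean COL1A1 and TAGLN levels fell under both agents. PDGFRA rose under CoCl2 (8.29 to 10.96 CPM) but fell under Oxy, and LUM rose under Oxy (3.74 to 4.84 CPM) but fell under CoCl2. The part of other cell types in the marker results was not tested.

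In HT-29 with CoCl2, 3 mesenchymal genes were called higher and 7 lower, 45.5% of those tested against 41.3% of all genes, with a median of 0.13, which was -0.51 under library size alone. PLAUR rose by 1.31 and the integrin ITGAV by 1.18. The actin-binding proteins TAGLN and TPM1 fell by 1.17 and 1.1 and NT5E by 1.14. Under library size alone 1 mesenchymal gene was called higher and 8 lower, so at most 1 of the 2 named rises kept its call. With Oxy in HT-29, 6 were called higher and 0 lower, 27.3% against 17.1%, with a median of 0.56 against 0.01. Under library size alone 5 were called higher and 1 lower with Oxy. PLAUR rose by 1.53, and TIMP1, an inhibitor of matrix metalloproteinases, by 1.07, from 50.4 ± 3.15 CPM to 106 ± 0.538.

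Of 30 further regulators of EMT, the filter kept 23 for Caco-2 and 24 for HT-29. With CoCl2 in Caco-2, 2 were called higher and 4 lower, 26.1% of those tested against 23.4% of all genes, with a median of 0.05. The ligand TGFB1 rose by 2.03 and the Notch ligand JAG1 by 1.05. The transcription factor TCF4 fell by 1.61 and the chromatin protein HMGA2 by 1.20. Under library size alone 1 regulator was called higher and 5 lower, so at most 1 of the 2 rises kept its call. With Oxy, TGFB1 rose by 1.36 and SMAD7, an inhibitor of the TGF-beta pathway, by 1.11, and HMGA2 fell by 1.08. These were the 3 called genes of that comparison, 13% against 11.7%. Under library size alone 1 was called higher and 2 lower with Oxy. With CoCl2 in HT-29, 2 were called higher and 9 lower, 45.8% against 41.3% of all genes, with a median of -0.61 against -0.03, and of -1.25 under library size alone. The ligand TGFB2 fell by 4.22, HMGA2 by 2.76 and the co-receptor ENG by 1.63, while the signal transducers SMAD3 and SMAD4 rose by 1.44 and 1.26. Under library size alone the last 2 were not called, since 0 were called higher and 13 lower. With Oxy, 1 was called higher and 3 lower, 16.7% against 17.1%, TGFB2 falling by 1.63 and SOX4 by 1.42. The other two, named after their values were seen, were SNAI3 at 1.72 with a mean of 26.3 counts and TCF4, which had 10 to 28 counts in control and 1 to 3 with Oxy.

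**Figure D3:**
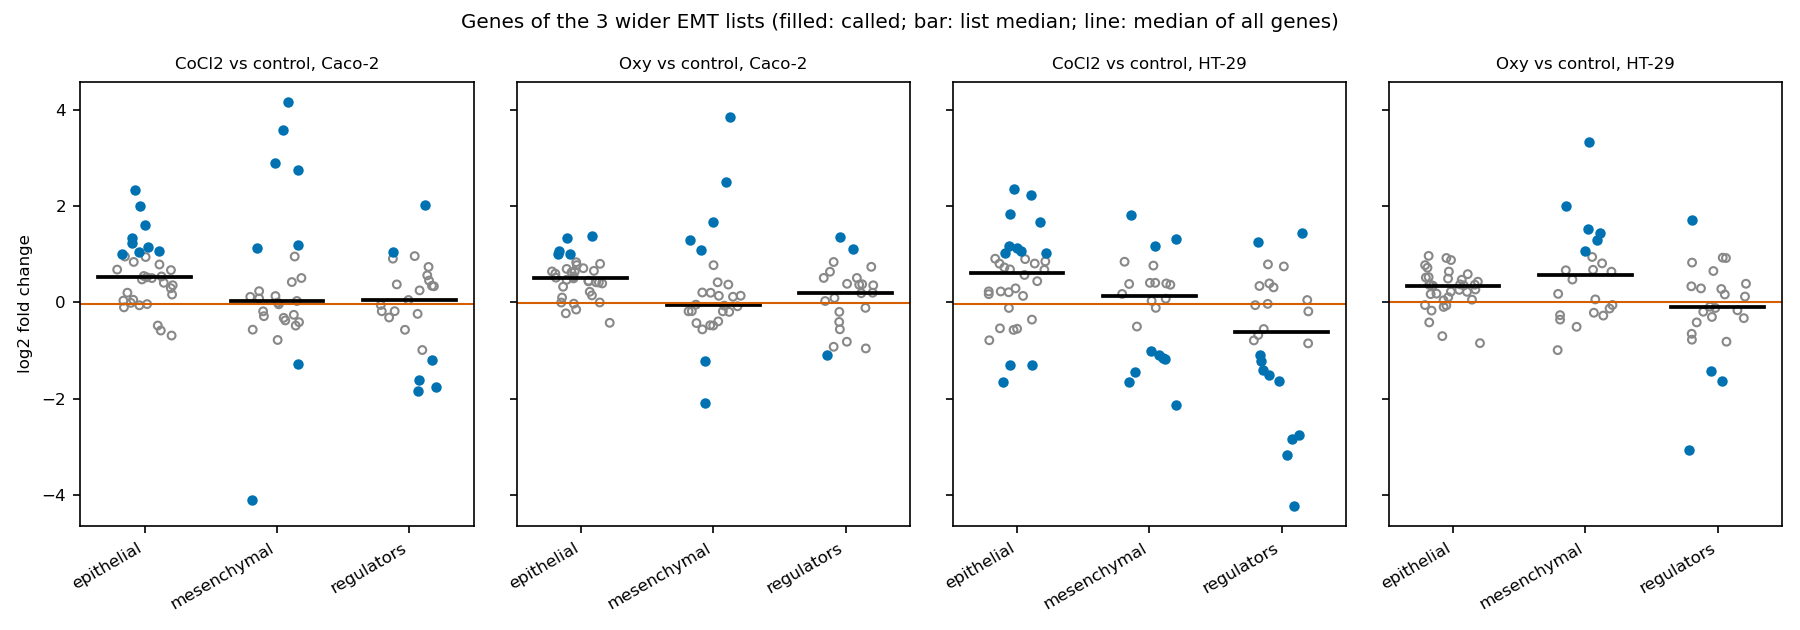
Log2 fold change of each tested gene of the 3 wider EMT lists in the 4 comparisons with control (points, filled where called). Black bars are list medians and the orange line is the median of all genes tested. The epithelial medians of 0.35 to 0.62 lie above the line under TMM scaling (-0.01 for CoCl2 in HT-29 under library size alone), and the regulator median for CoCl2 in HT-29 lies at -0.61.

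The miRNAs that target ZEB1 did not pass the FDR in any comparison with control under the main scaling. The 5 miR-200 family members together made up 6.16% to 7.05% of all miRNA counts in Caco-2 and 13.8% to 17.0% in HT-29. miR-200b-3p stood at 73160 ± 9006 CPM in HT-29 control, 73550 ± 2321 with CoCl2 and 75720 ± 4106 with Oxy, while ZEB1 rose with both agents. miR-200a-3p stood at 42460 ± 3903, 38030 ± 2633 and 42950 ± 5341 CPM in the same groups. The 95% intervals of the log2 fold changes of the 5 family members against control lay between -0.51 and 0.39 in HT-29, and both ends belonged to miR-141-3p. Of the 6 miRNAs, 0 were called and 0 passed the FDR in edgeR with TMM scaling and in DESeq2, against 0.936% called with CoCl2 and 0.375% with Oxy among 534 miRNAs in Caco-2, and 4.87% and 2.92% among 616 in HT-29. The FDR alone was passed by 6.55%, 2.06%, 12.2% and 7.14% of miRNAs in the same order. At an unadjusted p under 0.05 there were 0, 0, 2 and 1 of the 6 in these comparisons.

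The miRNAs behind those unadjusted values in HT-29 were miR-205-5p and miR-429. miR-205-5p was at 154, 108 and 136 CPM in control, 85.2, 94.2 and 102 with CoCl2, and 109, 92.9 and 91.0 with Oxy. Its log2 fold change was -0.44 with CoCl2 (SE 0.145, FDR 0.056, edgeR) and -0.42 with Oxy (SE 0.138, FDR 0.0752). With CoCl2 the value was -0.59 (FDR 0.0464, edgeR) under library size alone and -0.47 (FDR 0.0403) with DESeq2's size factors. Without control replicate 2 the main values were -0.58 (FDR 0.000945) and -0.55 (FDR 0.00178). miR-429 was at -0.25 with CoCl2 (FDR 0.211, edgeR), and at -0.38 (FDR 0.0118) without control replicate 2. HT-29 CoCl2 replicate 1 held only 34043 miRNA counts, of which miR-205-5p had 3.

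**Figure D4:**
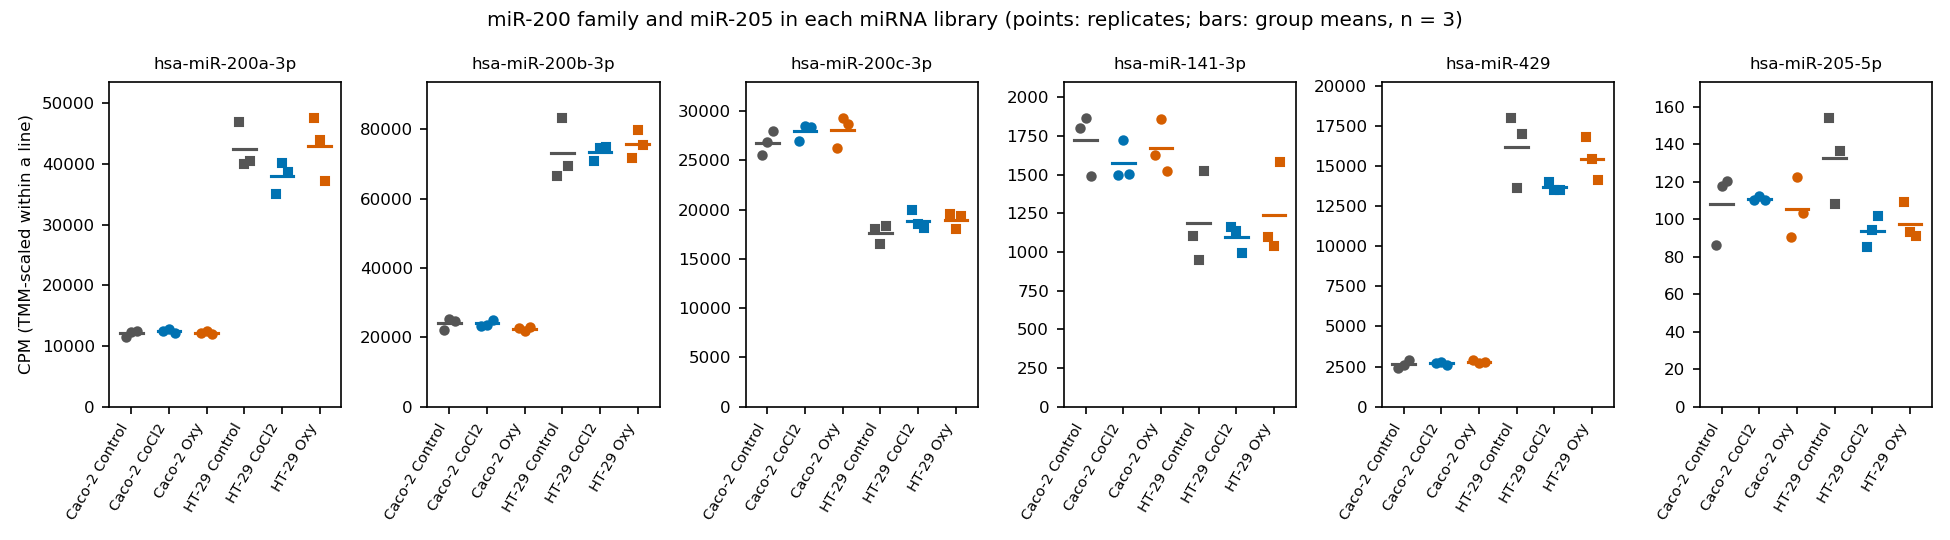
Level of the 5 miR-200 family members and miR-205-5p in each miRNA library, in CPM on linear axes that start at 0 (points, replicates; bars, means of 3; scaled within each line, so levels of the 2 lines are not on one scale). Treated and control groups of a line overlap in every case except miR-205-5p in HT-29, where the CoCl2 libraries lie under the control libraries.

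The genes whose log2 levels ran most like a marker over the 18 libraries, after each line was centred, were found for 4 markers. These were the markers tested in both lines, and candidates were genes tested in both lines with a mean of at least 100 counts. SNAI1 itself held only 7 to 44 counts per library in HT-29. For CDH1 the most similar genes were HK2 (Pearson's r 0.989), LDHA (0.987) and STK35 (0.987), the first 2 being enzymes of glycolysis. For EPCAM they were PABPC1 (0.979), UGP2 (0.97) and MYL12B (0.967). For SNAI1 they were ATXN2 (0.933), ARFIP2 (0.928) and AC009404.1 (0.927). For FN1 they included APOA1 (0.765) and FBLN1 (0.754), both lower than the values of the other markers. The points share treatments and library scaling, so r is given as a description.

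**Figure D5:**
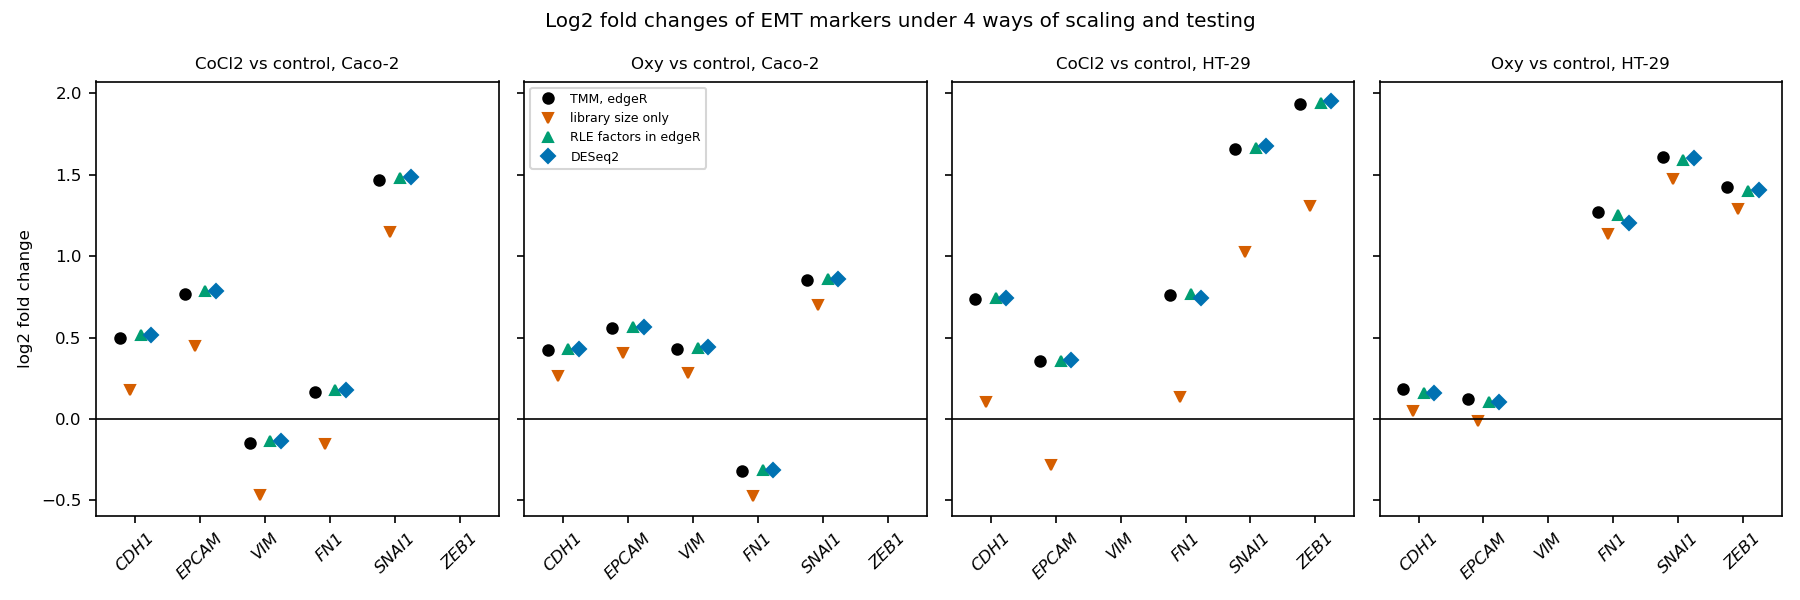
Log2 fold change against control of the tested EMT markers under 4 ways of scaling and testing (black circles, edgeR with TMM; orange triangles, edgeR with library size alone; green triangles, edgeR with DESeq2's size factors; blue diamonds, DESeq2). Library size alone lies lowest throughout, and EPCAM in HT-29 and FN1 with CoCl2 in Caco-2 cross 0; SNAI1 and ZEB1 stay above 1 in HT-29 under each of the 4.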

How the data were processed

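The markers and gene lists were chosen with earlier results of these data known. Per the labels and the study's methods, the authors trimmed single-end reads with cutadapt 2.10, aligned mRNA reads to GRCh38.p13 with STAR 2.7.5b and counted genes on GENCODE 34. The submitters' processing notes also name Bowtie 1.1.1, with no role. The counting tool and strand setting are not given in the sources used here. The authors deposited raw counts per gene and per mature miRNA, and log2(RPKM + 1) values scaled within each line. Here, counts were tested in edgeR 4.0.16 (R 4.3.3) with TMM scaling, filterByExpr and the two-sided quasi-likelihood F test, 9 libraries per line, or 18 for comparisons between lines. Adjustment followed Benjamini and Hochberg, over all features tested. The fit was tested on simulated counts in which a small set of genes changed in both directions, which does not test the choice of scaling. Named list genes were the 3 highest and 3 lowest called log2 fold changes per list and comparison with a mean of at least 100 counts and no overlap between groups; others are marked, and 2 genes that a naming rule chose are not reported here. Alternatives were library size alone, DESeq2's size factors, DESeq2 1.42.0, no filter, a replicate block, leaving out each library, no fold limit, and limma 3.58.1 on the deposited log2 values. Every value column had a sample. The deposited miRNA log2 CPM table was not used. miRNA totals ran from 34043 to 13092513, with 3 shallow libraries and the others at 3779390 or more. Coordinates are of GENCODE 44 on GRCh38.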

Additional observations from a re-analysis of the deposited data

Results flagged for a closer look

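The responses in brackets come from separate fits per line, scaled apart from the joint fit, so their difference need not equal the interaction value. For 6 pairs of marker and agent, the response in HT-29 differed from that in Caco-2 by an interaction test over 18 libraries (edgeR). For CoCl2 these were EPCAM, at -0.52 (FDR 9.73e-06; the responses were 0.77 for Caco-2 against 0.35 for HT-29), and VIM, at -1.92 (FDR 0.0427). For Oxy they were EPCAM at -0.45 (FDR 0.000101; 0.56 and 0.12), CDH1 at -0.26 (FDR 0.0102; 0.42 and 0.18), FN1 at 1.57 (FDR 0.000922; -0.32 and 1.27) and VIM at -2.47 (FDR 0.00537). The VIM values rest on at most 2 counts in each treated HT-29 library, and the CoCl2 call of VIM was lost with DESeq2, with its size factors and with the replicate block, where 0 markers were called. The EPCAM differences kept their sign and passed the FDR under every alternative run, with ranges of -0.73 to -0.42 for CoCl2 and -0.51 to -0.40 for Oxy.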

How the results depend on the processing

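Of 43 marker log2 fold changes under 737 alternatives, 681 kept their direction and side of the threshold, 18 lost it, 20 gained it and 18 changed sign, and 23 results kept both throughout. Under library size alone the sign changed for EPCAM in HT-29 (-0.28 with CoCl2, -0.014 with Oxy, -0.27 between agents), FN1 with CoCl2 in Caco-2 (-0.16), CDH1 between agents in Caco-2 (-0.088), SNAI1 between agents in HT-29 (-0.45), and the CoCl2 line differences of CDH1 (-0.076) and SNAI1 (-0.12). Leaving out 1 library turned VIM with CoCl2 in Caco-2 (range -0.29 to 0.0053), FN1 in HT-29 with CoCl2 (-0.31 to 1.30) and between agents (-1.59 to 0.025), the FN1 CoCl2 line difference (-0.59 to 1.02), SNAI1 between agents in HT-29 (-0.22 to 0.25; -0.0059 with no filter) and the SNAI1 CoCl2 line difference (-0.19 to 0.26). With no fold limit, the markers counted were 3, 4 and 3 in Caco-2 (CoCl2, Oxy, CoCl2 against Oxy), 4, 5 and 3 in HT-29, and 2 and 4 for the line differences with CoCl2 and Oxy. In the same order of CoCl2 and Oxy in Caco-2, then in HT-29, the lists then gave 27, 27, 34 and 28 epithelial genes, 17, 13, 16 and 17 mesenchymal genes and 17, 16, 21 and 20 regulators. With no filter, 4 markers were called with CoCl2 in HT-29, VIM (-2.03, FDR 0.0355, edgeR) and ZEB2 (FDR 0.00604) being added as lower. With Oxy 4 were called there, with VIM added as lower (-2.03, FDR 0.0254, edgeR). The added markers were near the floor. CoCl2 against Oxy in HT-29 gave 1 marker under library size alone or without CoCl2 replicate 1. The CoCl2 line difference called 0 with DESeq2, its size factors or the replicate block, and 0 to 2 when a library was left out (2 without HT-29 CoCl2 replicate 2), and the Oxy one 1 with DESeq2. Epithelial calls in Caco-2 were 5 and 2 under library size alone, 3 with Oxy without control replicate 3, and 1 with Oxy in HT-29 without Oxy replicate 2. Regulators with Oxy in Caco-2 were 5 without Oxy replicate 3. Leaving out 1 library, epithelial calls ran from 7 to 9 and from 3 to 5 in Caco-2 and from 11 to 12 and 0 to 1 in HT-29, and regulator calls with Oxy in Caco-2 from 3 to 5. Same-numbered mRNA replicates did not regularly deviate together (correlations -0.239 to 0.248 in 6 comparisons). With 3 replicates per group this cannot exclude pairing, and the miRNA libraries were not checked. The replicate block gave an FDR of 0.028 (edgeR) for FN1 with CoCl2 in HT-29 and of 0.0263 for miR-205-5p with Oxy in HT-29. Apart from sign changes that library size alone makes by its construction, the cause was not tested. Depth limits ZEB1, SNAI1 and VIM in HT-29, uneven replicates limit FN1 there, and 3 shallow miRNA libraries limit the miRNA tests.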
